A study of Homo sapiens with 14 samples.

Results

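Heat shock proteins and chaperones bind other proteins while these fold, assemble, cross a membrane or unfold under stress. The genes described here were chosen by name. They are the HSP70 and HSP110 chaperones (HSPA, HSPH1), HSP90 chaperones and 4 of their co-chaperones (AHSA1, STIP1, FKBP4, PTGES3). J-domain proteins (DNAJ), BAG proteins, and small heat shock and other HSPB-named proteins were also taken. So were the mitochondrial chaperonin (HSPD1, HSPE1), the cytosolic chaperonin (CCT subunits, TCP1), and the heat shock factors HSF1 and HSF2. The rule found 83 of the 12202 genes listed in either of the authors' deposited tables, and the genes fell into 12 families. Of these, 80 were listed for siRNA and 82 for deletion, with 79 in both tables. HSPA6 was listed in the siRNA table alone, and the pseudogenes HSP90AB2P, HSP90AB3P and HSPD1P11 in the deletion table alone. The rule also took the antisense RNA DNAJC3-AS1.

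All 14 libraries came from teloHAEC, an established line of human aortic endothelial cells immortalised with telomerase, and the study concerns an enhancer of CALCRL, the gene for the calcitonin receptor-like receptor, that its title describes as under the control of heat shock factor. In the siRNA arm, cells received siRNA against CALCRL (4 libraries) or scrambled siRNA (4 libraries) by reverse transfection and were lysed 24 h later. In the deletion arm, Cas9 protein with guides flanking the enhancer (3 libraries) or with a guide against HPRT (3 libraries) was electroporated, and RNA was taken after 2 days. No cells without transfection or electroporation were analysed here. The deletion cells were a treated pool rather than a clone, and the share of alleles that lost the enhancer is not given in the sources used here.

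HSP70 chaperones bind short hydrophobic stretches in cycles of ATP hydrolysis that J-domain proteins start and nucleotide exchange factors such as BAG proteins and HSP110 end. HSP90 acts later, on nearly folded clients such as kinases and receptors, and takes many of them over from HSP70 through STIP1. HSF1 drives the heat-inducible members by binding repeats of the unit nGAAn in alternating orientation, called heat shock elements. In endothelial cells HSP90 is known for its complex with nitric oxide synthase, and HSPB1 for its link to the actin cytoskeleton.

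The heat shock element is shown first, because the study's enhancer was described through this factor. Promoter sequences from RefSeq (GRCh38.p14, from 250 bases before to 50 after a gene's start) were matched to 70 of the 83 genes. A pair of facing units, GAANNTTC or TTCNNGAA, lay in at least 1 promoter of 22 of those 70 genes (31.4%), compared with 16.2% of all 27305 genes with a promoter. A run of 3 units, GAANNTTCNNGAA or TTCNNGAANNTTC, lay in 7 of the 70 (10%), compared with 0.608% of all genes. Each pattern covers both strands, and every run of 3 units also contains the pair. The 7 genes with 3 units were DNAJA1, DNAJB6, HSP90AA1, HSP90AB1, HSPA6, HSPA8 and HSPD1. Windows of 60 bases around the first match are printed below for 6 of these, with DNAJB1 and HSPB1 added because both were higher in the deletion arm and carry the pair. All run 5′ to 3′ on the gene's own strand, with bases that belong to a match in capitals.
HSP90AA1, chr14:102087097-102087156, minus strand: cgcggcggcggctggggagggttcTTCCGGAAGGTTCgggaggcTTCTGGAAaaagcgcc
HSP90AB1, chr6:44247754-44247813, plus strand: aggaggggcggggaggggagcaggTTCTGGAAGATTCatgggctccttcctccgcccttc
HSPA8, chr11:123062327-123062386, minus strand: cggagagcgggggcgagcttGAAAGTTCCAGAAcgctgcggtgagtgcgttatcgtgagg
HSPA6, chr1:161524442-161524501, plus strand: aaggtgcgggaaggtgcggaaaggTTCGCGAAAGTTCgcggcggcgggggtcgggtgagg
HSPD1, chr2:197500031-197500090, minus strand: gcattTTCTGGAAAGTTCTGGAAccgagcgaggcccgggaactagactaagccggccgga
DNAJB6, chr7:157336849-157336908, plus strand: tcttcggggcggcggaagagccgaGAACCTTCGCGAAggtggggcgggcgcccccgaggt
DNAJB1, chr19:14518439-14518498, minus strand: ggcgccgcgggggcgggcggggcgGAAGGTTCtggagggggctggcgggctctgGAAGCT
HSPB1, chr7:76302467-76302526, plus strand: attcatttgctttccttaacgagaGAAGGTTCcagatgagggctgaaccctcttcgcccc
The first match starts 88 bases before the start site of HSP90AA1, 165 before that of HSP90AB1, 74 before that of HSPA6 and 77 before that of DNAJB1, where a second match runs past the end of the window. These are matches of letters, and no binding was measured in these data.

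The tables give 1 value per gene and comparison and none per library, so each value below is a log2 fold change (treated against control) with its standard error (SE) over the arm's libraries. Except for differences between the arms and values under another setting, log2 fold changes, SEs and adjusted p-values are those of the authors' deposited tables, from their DESeq2 Wald test with Benjamini-Hochberg adjustment. A gene is called at an adjusted p under 0.05, and "rose" and "fell" are used for called genes. Percentages of the control are the fold changes written on a linear scale, with 95% intervals from the SE. In the authors' deposited tables CALCRL itself was at -1.56 (SE 0.17) under siRNA and -1.47 (SE 0.43) after deletion. Of 12 endothelial markers 11 were listed in each table, while 2 of 6 smooth muscle, 1 of 6 leukocyte, 0 of 6 fibroblast and 0 of 5 epithelial markers were. In the deletion arm 2 of the 11 listed endothelial markers were called lower in the authors' deposited table, against 8.44% of all genes. These were CDH5 at -1.44 and KDR at -1.05. The other 9 were not called, and 4 of the 11 lay above 0. PECAM1 was not listed, and EMCN (9.78) and VWF (18.7) had low mean normalised counts in this arm. Fewer cells of a type and less RNA per cell cannot be told apart in such bulk samples.

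In the siRNA arm 2 of the 80 chaperone genes (2.5%) were called, against 3.46% of all 11261 genes, and both fell. BAG2, a cofactor of HSP70 that inhibits the ubiquitin ligase CHIP, was at -0.49 (SE 0.12, adjusted p 0.00232) in the authors' deposited table, which is 71.2% of the scrambled control (95% interval 60.6% to 83.7%). DNAJC16, a J-protein of the endoplasmic reticulum, was at -0.50 (SE 0.14, adjusted p 0.0196), which is 70.9% of control (58.4% to 86.0%). The share called lower was 2.42% over all genes. Under a Student t reference of 6 degrees of freedom neither passed, with adjusted p-values of 0.393 for BAG2 and 0.514 for DNAJC16. With the statistic divided by its robust SD over all genes, DNAJC16 was outside the threshold (adjusted p 0.0652). None of the 80 was called higher by the DESeq2 Wald test, against 1.05% of all genes. An unadjusted p under 0.05 in either direction was found for 6 of the 80 (7.5%), against 12.0% of all genes. A log2 fold change of 1 or more in either direction was reached by 0 of the 80, and by 0.551% of all genes.

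The next genes in order of p in the siRNA arm were DNAJB4 at -0.42 (SE 0.15, adjusted p 0.0919) and BAG1 at -0.28 (SE 0.10, adjusted p 0.0928) in the authors' deposited table, both outside the threshold. All 6 BAG genes had a log2 fold change below 0, from -0.49 for BAG2 to -0.04 for BAG6. Over the 80 genes 36 were above 0 and 44 below, with a median of -0.01 against 0.00 for all genes. The heat-inducible genes gave values near 0 in this arm: HSPA1A was at 0.07 (SE 0.14), HSPA1B at 0.06 (SE 0.25), HSPA6 at -0.05 (SE 0.37), DNAJB1 at 0.04 (SE 0.12) and HSPB1 at -0.01 (SE 0.10). HSPH1 was the only one of the 17 genes on the heat-inducible list with an unadjusted p under 0.05, at 0.23 (SE 0.11, adjusted p 0.338).

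The 7-base word GTAACAA was examined in the 3' UTRs because earlier work on these tables had picked it out, after the values were seen, as frequent among genes lower under siRNA. It occurred in 6 of 79 chaperone genes with an annotated 3' UTR (7.59%), against 10.7% of all such genes. BAG2 carries the word and DNAJC16 does not. Over all genes of the siRNA arm, the median log2 fold change was -0.117 with the word and 0.0118 without. In the deletion arm, which used no siRNA, the medians were -0.137 and 0.0131. No link of the word to the siRNA was tested. The site in BAG2, with the word in capitals, is shown as the only one in a called member, from base 4143 of a 3' UTR of 5643 bases in GENCODE release 29 (GRCh38), with the gene on the plus strand of chromosome 6.
BAG2 site: aattcaaatatGTAACAAagctctctctt
The other genes with the word were HSPA4L, DNAJC10, DNAJC15, DNAJC3 and BAG4, and none of them was called in the siRNA arm. The last 500 bases of the BAG2 transcript lie opposite exons of RAB23, and whether counting used the strand is not given in the sources used here.

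After deletion of the enhancer, chaperone genes were called in both directions. DNAJB1, HSPB1 and HSP90AA1 rose, to between 160% and 230% of the control, while HSPE1, DNAJC19, CCT4 and AHSA1 fell, to between 18.0% and 34.8%. The list of heat-inducible genes described further below holds DNAJB1, HSPB1 and HSP90AA1 but also HSPE1 and AHSA1. In all, 19 of the 82 chaperone genes (23.2%) were called, against 15.8% of all 11830 genes tested. Of these, 11 rose (13.4% of the chaperone genes, against 7.4% of all genes) and 8 fell (9.76% against 8.44%). At an unadjusted p under 0.05 there were 32 (39.0%), against 29.7% of all genes. The median log2 fold change of the 82 genes was 0.04 and that of all genes 0.00, with 45 of the 82 above 0. Chaperone genes are abundant, with a median mean normalised count of 422 against 130 for all genes, and their median SE was 0.30 against 0.41. Among genes with a mean of at least 50 counts, 20 of 71 chaperone genes (28.2%) and 22.2% of all genes were called. A log2 fold change of 1 or more in either direction was reached by 12 of the 82 (14.6%) and by 24.4% of all genes. With a Student t reference of 4 degrees of freedom in place of the normal one, 0 of the 82 and 0 of all genes remained called. An unadjusted p under 0.05 was then found for 15 of the 82, with the share of all genes not computed. With a trend of fold change on the GC content of the transcript end removed, the shares turned round: 7 of the 82 (8.54%) were called, 3 higher and 4 lower, against 12.4% of all genes. DNAJB1, DNAJC19 and AHSA1 stayed called, and HSPB1, HSP90AA1, HSPE1 and CCT4 did not.

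**Figure D1:**
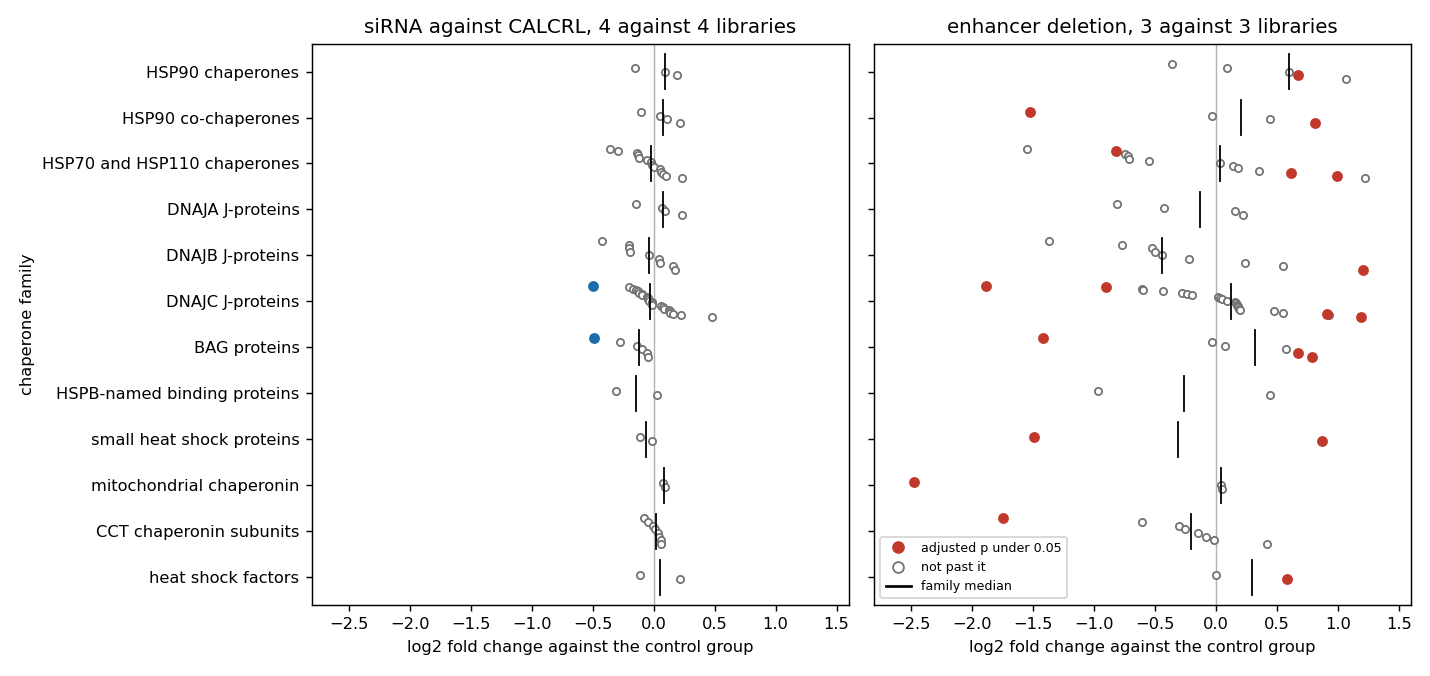
Log2 fold change of every listed chaperone gene by family (rows), with the siRNA arm on the left and the deletion arm on the right. Filled points have an adjusted p under 0.05 in the authors' deposited tables, open points do not, and bars mark family medians. The siRNA arm has 2 filled points, while 10 of the 12 families have at least 1 in the deletion arm. Over all genes 15.8% were called in the deletion arm.

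Among the HSP90 chaperones, the inducible cytosolic form HSP90AA1 rose in the deletion arm. The authors' deposited table put it at 0.67 (SE 0.23, adjusted p 0.0299), 160% of the control (117% to 218%), from a group mean of 20746 normalised counts in controls to 33114. HSP90AB1, the constitutive form and the chaperone gene with the highest mean in both tables, was at 0.60 (SE 0.25, adjusted p 0.0753), outside the threshold. HSP90B1, the form of the endoplasmic reticulum, was at 0.09 (SE 0.20, adjusted p 0.804). The pseudogenes HSP90AB3P at 1.06 (SE 0.43, adjusted p 0.0708) and HSP90AB2P at -0.36 (SE 0.90) are uncertain as copies of HSP90AB1. The last 500 bases of their transcripts share 0 of 451 words of 50 bases with the last 500 of HSP90AB1. Inner parts of HSP90AB1 were not compared, so shared reads remain possible. Under siRNA the 3 functional genes lay between -0.15 and 0.19, and none was called.

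The HSP90 co-chaperones moved apart. AHSA1, which speeds up the ATPase of HSP90, fell to 34.8% of the control (17.7% to 68.2%), with a log2 fold change of -1.52 (SE 0.50, adjusted p 0.0216) in the authors' deposited table. STIP1, which joins HSP70 to HSP90, rose at 0.81 (SE 0.30, adjusted p 0.0469). FKBP4, an immunophilin of steroid receptor complexes, was at 0.44 (SE 0.22, adjusted p 0.152), and PTGES3, the p23 co-chaperone, at -0.03 (SE 0.16). Under siRNA all 4 lay between -0.10 and 0.21.

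Of the 13 HSP70 and HSP110 genes tested in the deletion arm, 2 rose and 1 fell, where 7.4% and 8.44% of all genes did. HSPA12B, a distant HSP70 relative known from endothelium, rose at 0.99 (SE 0.32, adjusted p 0.0215), and HSPH1, an exchange factor of HSP70, at 0.62 (SE 0.22, adjusted p 0.0405) in the authors' deposited table. HSPA8, the constitutive cytosolic HSP70, fell to 56.8% of the control (38.8% to 83.3%), at -0.82 (SE 0.28, adjusted p 0.0312). The stress-inducible HSPA1A had a lower point estimate, -1.55, but its SE of 1.06 left it uncalled (adjusted p 0.333), and its near-identical copy HSPA1B was at -0.72 (SE 0.45, adjusted p 0.281). The last 500 bases of HSPA1A and HSPA1B share 5 of 451 words of 50 bases (1.11%). Only exact words were counted and inner parts were not compared, so shared reads remain possible. HSPA5 (the endoplasmic reticulum form) was at 0.36 (SE 0.18, adjusted p 0.160) and HSPA9 (the mitochondrial form) at 0.14 (SE 0.21). HSPA4 was at 0.19, HSPA4L at 0.03, HSPA13 at -0.74, HSPA14 at -0.55, HSPA1L at -0.71 and HSPA2 at 1.23 (SE 1.43), none of them called.

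Among the 37 genes with a DNAJ name tested in the deletion arm, which include the antisense RNA DNAJC3-AS1, 3 rose and 2 fell, where 7.4% and 8.44% of all genes did. DNAJB1, the main cytosolic partner of inducible HSP70, gave the largest rise of any called chaperone gene. The authors' deposited table put it at 1.20 (SE 0.29, adjusted p 0.00149), 230% of the control (155% to 342%), from a group mean of 537 normalised counts to 1238. DNAJC30 at 1.19 (SE 0.45, adjusted p 0.0492) and DNAJC11 at 0.91 (SE 0.32, adjusted p 0.0317), both mitochondrial, also rose. DNAJC19, part of the import motor of the inner mitochondrial membrane, fell to 27.1% of the control (13.3% to 54.9%), at -1.89 (SE 0.52, adjusted p 0.00607). DNAJC9, a histone chaperone as well as an HSP70 cofactor, fell at -0.90 (SE 0.31, adjusted p 0.0325). None of the 4 DNAJA genes was called, and they ranged from -0.81 (DNAJA3) to 0.23 (DNAJA2). The last 500 bases of DNAJC11 lie wholly opposite exons of THAP3 and those of DNAJC9 wholly opposite exons of FAM149B1, so their counts are uncertain if strand was not used.

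Of the 6 BAG genes, most of them nucleotide exchange factors of HSP70, 2 rose and 1 fell in the deletion arm. Over all genes 7.4% rose and 8.44% fell. BAG6, which handles mislocalised membrane proteins, had the lowest adjusted p of all chaperone genes: it was at 0.79 (SE 0.18, adjusted p 0.000642), 173% of the control (135% to 221%), in the authors' deposited table. With the GC trend removed BAG6 was at 0.34 (adjusted p 0.205) and no longer called. BAG5 rose at 0.67 (SE 0.24, adjusted p 0.0350). BAG3, which routes clients to autophagy and is itself heat-inducible, fell to 37.6% of the control (20.9% to 67.6%), at -1.41 (SE 0.43, adjusted p 0.0142). BAG1 was at 0.57 (adjusted p 0.158), BAG4 at 0.08 and BAG2 at -0.03, and BAG2 was thus called in the siRNA arm and not in the deletion arm. The difference of BAG2 between the arms was 0.46 (SE 0.25, adjusted p 0.204) and did not pass.

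Both genes grouped by name as small heat shock proteins were called, in opposite directions, where 15.8% of all genes were called. HSPB1 (HSP27) rose to 183% of the control (132% to 255%), at 0.87 (SE 0.24, adjusted p 0.00618), and HSPB11 fell to 35.7% (20.3% to 62.6%), at -1.49 (SE 0.41, adjusted p 0.00646), both in the authors' deposited table. With the GC trend removed HSPB1 was at 0.25 (adjusted p 0.536) and no longer called. HSPB11, despite its name, is known as a part of the intraflagellar transport complex of cilia.

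The partners of the mitochondrial chaperonin differed in their values. HSPE1, the lid of the folding chamber, had the lowest log2 fold change of any chaperone gene in the authors' deposited table, -2.48 (SE 0.85, adjusted p 0.0306), 18.0% of the control (5.64% to 57.2%). HSPD1, which forms the chamber and is transcribed from the same stretch of chromosome 2 in the other direction, was at 0.04 (SE 0.20, adjusted p 0.915). Both lie on the chromosome of CALCRL, HSPD1 at 10.04 Mb from it and HSPE1 at 10.05 Mb (GENCODE 29, GRCh38), and 7 chaperone genes in all are on chromosome 2. The nearest, DNAJC10 at 4.55 Mb, was at -0.20 and was not called. The last 500 bases of HSPE1 overlap the read-through gene HSPE1-MOB4 on the same strand over 156 bases, so its counts are uncertain.

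In the cytosolic chaperonin, which folds actin and tubulin, 1 of 8 subunits was called in the deletion arm, against 15.8% of all genes. CCT4 fell to 29.9% of the control (12.4% to 71.7%), at -1.74 (SE 0.64, adjusted p 0.0456), in the authors' deposited table. The other subunits ranged from -0.60 for CCT2 (SE 0.27, adjusted p 0.112) to 0.42 for CCT3 (SE 0.19, adjusted p 0.105), with CCT8 at -0.30, CCT7 at -0.25, CCT5 at -0.15, CCT6A at -0.08 and TCP1 at -0.01. In the siRNA arm all 8 lay between -0.08 and 0.06.

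HSF1, the factor that drives the heat shock response, rose at 0.58 (SE 0.20, adjusted p 0.0276) in the authors' deposited table, 150% of the control, but was at -0.02 (adjusted p 0.960) once the trend of fold change on GC content was removed. HSF2 was at 0.00 (SE 0.65) in the deletion arm and 0.22 (SE 0.20) in the siRNA arm, and was not called. Under siRNA HSF1 was at -0.11 (SE 0.11, adjusted p 0.803).

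**Figure D2:**
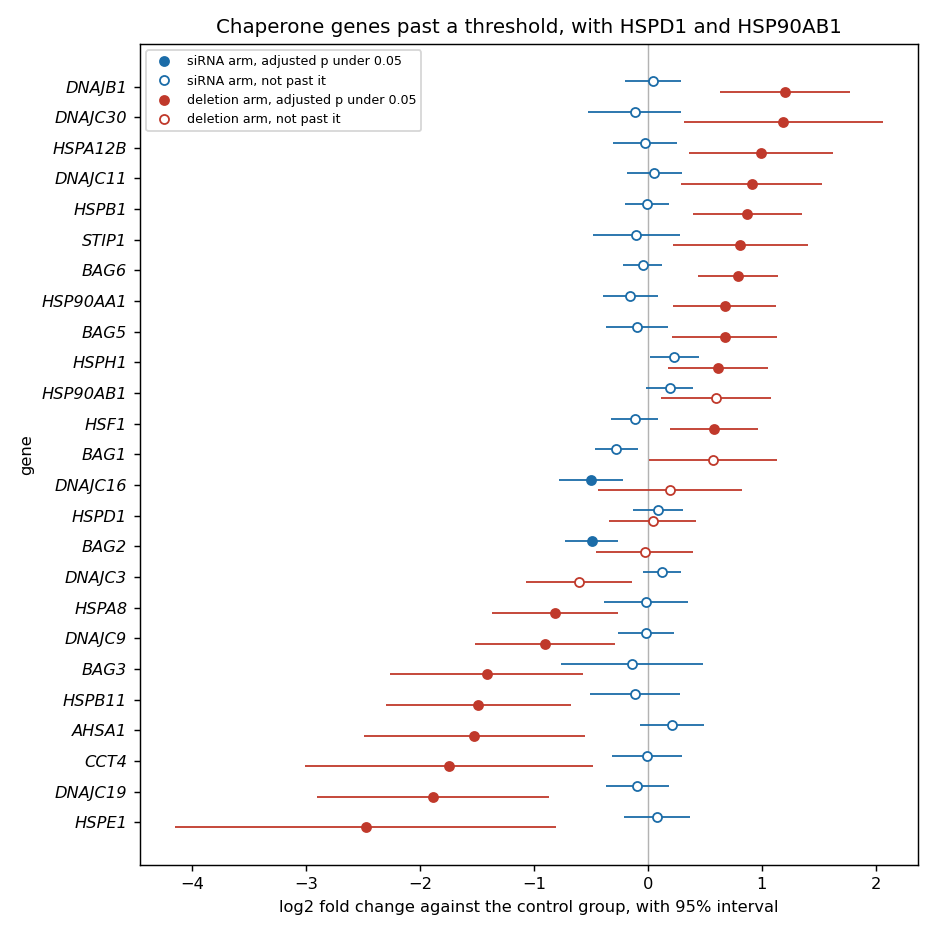
Log2 fold change with 95% interval in the siRNA and deletion arms for the chaperone genes that passed a threshold in an arm or in the difference between arms, with HSPD1 and HSP90AB1 for comparison. Intervals of the deletion arm are wider throughout, and those of HSPE1 and CCT4 are among the widest, with SEs of 0.85 and 0.64.

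The chaperone genes also fall into lists by role and compartment. A list of 17 genes taken as heat-inducible is mostly cytosolic but holds HSPD1 and HSPE1. It also holds HSPA8 and HSP90AB1, named above as constitutive forms, so it is not purely heat-inducible. Of 16 tested in the deletion arm, 9 were called, 5 higher and 4 lower, with a median of 0.04. Over all genes 15.8% were called (7.4% higher, 8.44% lower). With the GC trend removed, 4 of these 9 stayed called: DNAJB1, HSPH1, AHSA1 and BAG3. The genes that rose were HSP90AA1, HSPH1, DNAJB1, HSPB1 and STIP1, and those that fell were HSPA8, HSPE1, BAG3 and AHSA1. Of 8 chaperones of the endoplasmic reticulum 0 were called by the DESeq2 Wald test, although 6 lay below 0 with a median of -0.52, and the lowest adjusted p was 0.0511, for DNAJB11 at -0.77 (SE 0.29). DNAJC3 was next to it at -0.60 (SE 0.24, adjusted p 0.0631). With the GC trend removed DNAJB11 was at -0.55 (adjusted p 0.206) and DNAJC3 at -0.38 (adjusted p 0.308). Of a list of 7 mitochondrial chaperones that does not hold DNAJC30, 1 was higher (DNAJC11) and 2 were lower (HSPE1 and DNAJC19). The shares over all genes were again 7.4% and 8.44%.

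Of 35 other genes of the chaperone pathways tested in the deletion arm, 7 rose and 2 fell, where 7.4% and 8.44% of all genes did. Those that rose in the authors' deposited table were CDC37 (1.23), which loads kinases onto HSP90, SGTA (1.13), which works beside BAG6, UNC45A (1.01), a myosin chaperone, NUDC (0.76), an HSP90 co-chaperone, the mitochondrial disaggregase CLPB (1.53), the prefoldin subunit PFDN5 (1.20) and the lectin chaperone CANX (0.63). GRPEL2 (-1.35), an exchange factor of mitochondrial HSP70, and C11orf73 (-2.25), also called HIKESHI, which carries HSP70 into the nucleus under heat, fell. Adjusted p-values of these called genes, by the DESeq2 Wald test, ran from 0.000639 (C11orf73) to 0.0396 (GRPEL2). Values with the GC trend removed are not given for them. In the siRNA arm 1 of 34 was called, against 3.46% of all genes. It was FKBP5, at -0.38 (adjusted p 0.0440).

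The arms were compared gene by gene over the 79 chaperone genes listed in both tables, by a normal test of the difference between the log2 fold changes (deletion minus siRNA) adjusted over the 10891 genes tested in both. The arms share no control libraries, but differ in delivery, time and control, so a difference cannot be told apart from these. It passed an adjusted p of 0.05 for 13 of the 79 (16.5%), against 13.7% of all genes. At an unadjusted p under 0.05 there were 26, with the share of all genes not computed. Among the 13, deletion lay above siRNA for 8 (10.1% of the 79, against 6.49% of all genes) and below for 5 (6.33%, against 7.22%). Those above were DNAJB1 (difference 1.16, SE 0.32), HSPA12B (1.02, SE 0.35), HSPB1 (0.88, SE 0.26), BAG1 (0.85, SE 0.30), BAG6 (0.83, SE 0.20), HSP90AA1 (0.83, SE 0.26), BAG5 (0.77, SE 0.28) and HSF1 (0.70, SE 0.22). The difference was negative for HSPE1 (-2.56, SE 0.86), DNAJC19 (-1.79, SE 0.54), AHSA1 (-1.74, SE 0.52), HSPB11 (-1.38, SE 0.46) and DNAJC3 (-0.73, SE 0.25). BAG1 and DNAJC3 were called in neither arm alone. Under the Student t reference, and with each statistic divided by its robust SD over all genes, 0 of these differences passed. The sign was the same in both arms for 42 of the 79 (53.2%) and for 51.1% of all genes.

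**Figure D3:**
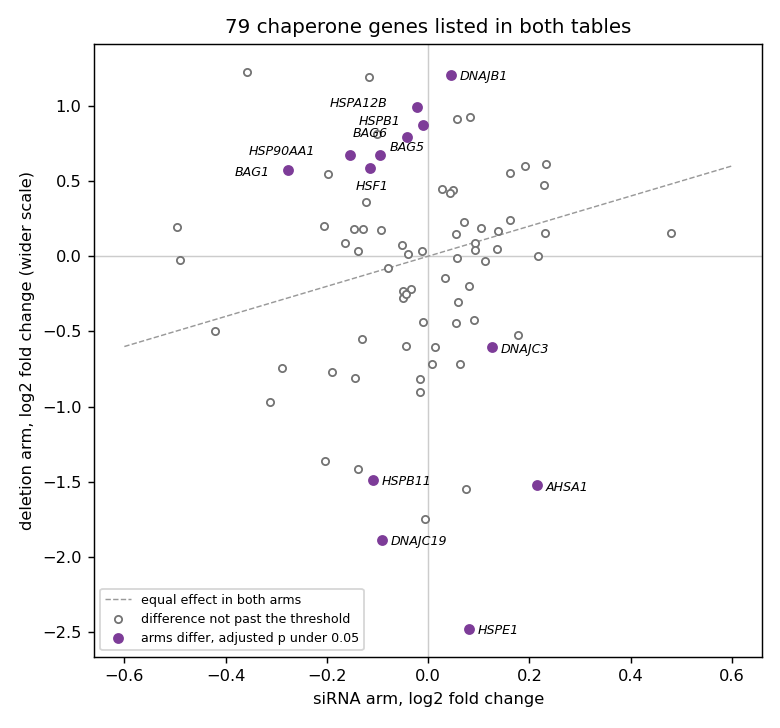
Log2 fold change in the siRNA arm (x axis) against the deletion arm (y axis, wider scale) for the 79 chaperone genes listed in both tables, with coloured points where the difference between arms has an adjusted p under 0.05. The 13 coloured points lie 8 above and 5 below, while siRNA values stay between -0.50 and 0.48.

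The response to deletion moved with the base composition of the transcript end. Across genes, Spearman's rho between log2 fold change and the GC content of the last 500 transcript bases was 0.303 for all 11630 genes with a transcript and 0.327 for the 82 chaperone genes, where genes share the same libraries and are not independent. In the siRNA arm rho was 0.0741 for all genes and 0.193 for the chaperone genes. The chaperone genes that rose after deletion had a median GC content of 52.6% and those that fell 37.1%, with 42.0% for all genes. HSPB1 has 63.8%, HSF1 63.2% and BAG6 57.8%, whereas HSPB11 has 35.0% and CCT4 33.2%. AHSA1 fell with 53.4% and DNAJB1 rose with 45.0%.

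Of the 7 chaperone genes called in the deletion arm with the trend on GC content removed, DNAJB1 (1.21), BAG5 (0.91) and HSPH1 (0.83) were higher, and AHSA1 (-1.82), DNAJC19 (-1.71), HSPB11 (-1.27) and BAG3 (-1.21) lower. Beside HSPB1 and BAG6, given above, HSP90AA1 then stood at 0.62 (adjusted p 0.0566) and HSPE1 at -2.28 (adjusted p 0.0559). The calls of 7 further genes ended with smaller or larger shifts in the value. CCT4 stood at -1.52, DNAJC30 at 1.14, DNAJC9 at -0.80 and HSPA8 at -0.70, all close to their deposited values, while HSPA12B stood at 0.69, STIP1 at 0.54 and DNAJC11 at 0.39. HSF1, as given above, changed sign. The difference between the arms passed for 6 genes, DNAJB1, HSP90AA1, BAG1 and BAG5 above and AHSA1 and DNAJC19 below. The 2 calls of the siRNA arm were kept.

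**Figure D4:**
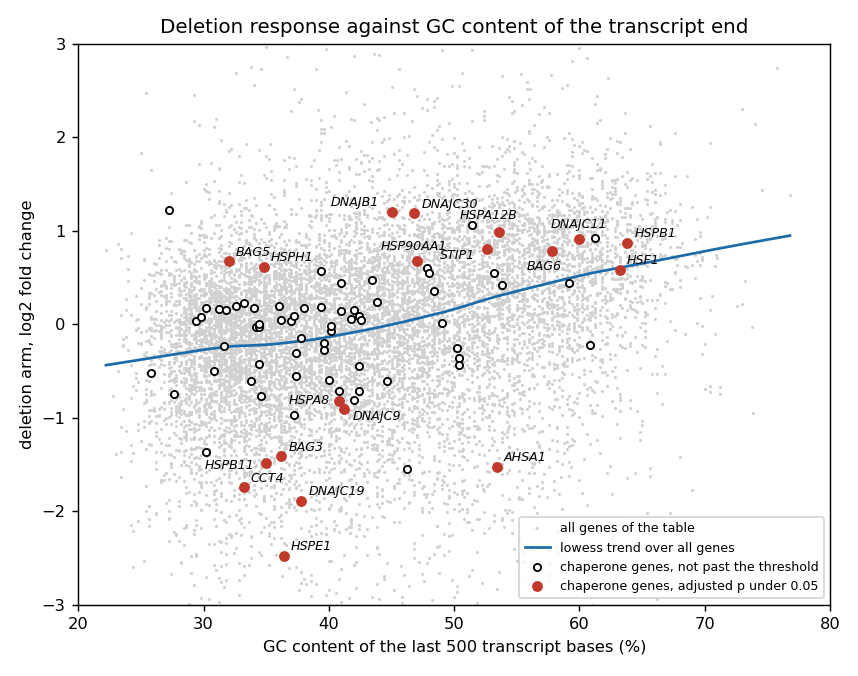
GC content of the last 500 transcript bases (x axis) against log2 fold change in the deletion arm (y axis, limited to between -3 and 3) for all genes in grey and chaperone genes in colour, with the fitted trend as a line. Chaperone genes that rose have a median GC content of 52.6% and those that fell 37.1%.

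Some of the falls came with large SEs for the level of the gene. The SE of each gene was divided by the median SE of the genes nearest to it in mean count, 100 on each side. This ratio was above 2 for 3 of the 82 chaperone genes in the deletion arm, HSPA1A (3.71), HSPE1 (3.67) and CCT4 (2.69), all with log2 fold changes below 0. Over all genes it was above 2 for 106 of 11830 (0.896%), of which 101 were below 0 and 5 above. It was 1.87 for AHSA1, 1.57 for DNAJC19, 1.21 for DNAJB1 and 0.693 for BAG6. In the siRNA arm BAG3 alone was above 2, at 2.76, with STIP1 at 1.97 and HSPA8 at 1.88. Which libraries gave the spread was not tested.

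**Figure D5:**
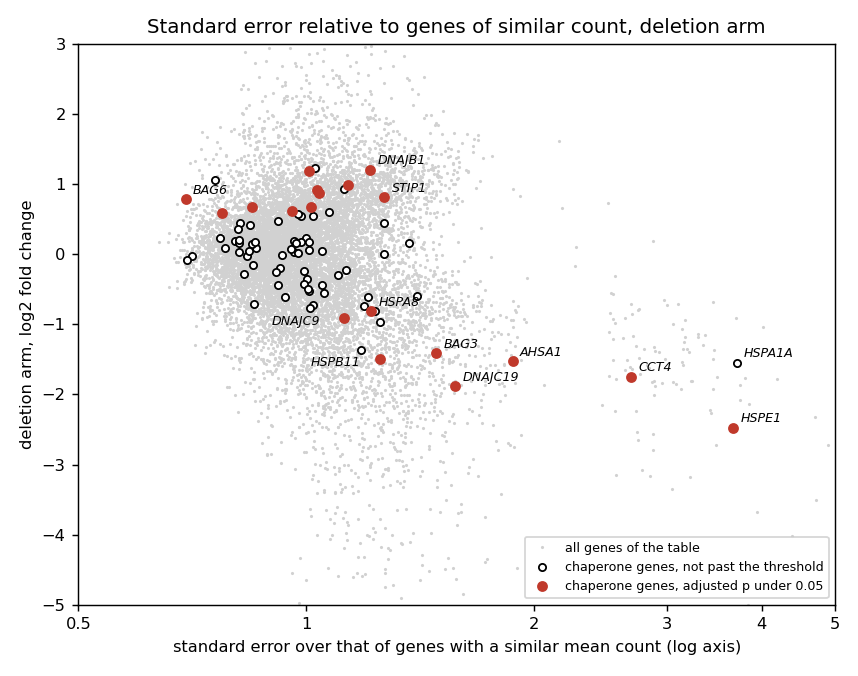
Standard error relative to genes of similar mean count (x axis, log scale) against log2 fold change in the deletion arm (y axis, points beyond its ends not drawn) for all genes in grey and chaperone genes in colour. HSPA1A (3.71), HSPE1 (3.67) and CCT4 (2.69) stand to the right of the ratio of 2, all below 0.

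The promoter matches described above were spread over the calls of the deletion arm. The pair of units was found in 4 of 9 genes that rose, in 2 of 7 that fell and in 15 of 53 that were not called, counting genes with a matched promoter. Of the genes with 3 units, HSP90AA1 rose and HSPA8 fell, and DNAJA1 (-0.42, adjusted p 0.180), DNAJB6, HSP90AB1 and HSPD1 were not called in the authors' deposited table. The called genes with the pair were DNAJB1, HSPB1, STIP1 and HSP90AA1, which rose, and CCT4 and HSPA8, which fell. HSPE1, whose own promoter window holds neither pattern, fell. The match of 3 units printed for HSPD1 lies within bases 197500031 to 197500090 of chromosome 2. That stretch is close to the annotated HSPE1 start at 197499994, on the side towards the HSPE1 gene. HSPE1 therefore has these letters nearby, outside its window, and cannot be taken as a gene without the element.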

How the data were processed

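Libraries were made with the QuantSeq FWD 3' mRNA kit, which reads near the polyadenylated end, and sequenced single-end for 86 cycles, per the labels' protocols. Per the file headers, the authors compared the groups of each arm with DESeq2, and their deposited tables give per gene a mean normalised count (a signal averaged over the arm's libraries), the log2 fold change with its SE, the Wald score (the ratio of the former to the latter), and the p-value before and after adjustment. The submitters' processing notes name hg19 and edgeR 3.24.3 without a role, and the aligner, annotation, filters and strand setting are not given in the sources used here. With no value per library, each library's depth is unknown, and the mean normalised counts summed to 4547165 (siRNA) and 5153709 (deletion). The labels do not say whether the libraries of a group came from separate cultures, so p-values measure only the spread between these samples, which may be technical.

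The members and lists were chosen with earlier results of these data known. Tests of single genes are the authors' own, called at an adjusted p under 0.05 over the whole table. From the deposited values, 95% intervals, percentages of control, group means and the normal test of the difference between arms were computed (Python 3.11.15, pandas 2.3.3, scipy 1.17.1). The difference test was run on simulated data with normal noise of the deposited SEs. That check cannot show how the test fares where the SEs themselves are off. GC content and transcript ends came from GENCODE release 29, matched for all 83 members, and a lowess trend of span 0.3 was fitted with statsmodels 0.14.6. This annotation may not be the one the authors used. For each gene the transcript with the longest annotated 3' UTR was taken. Whether these cells use that transcript end was not tested, which limits the GC values, overlaps and 3' UTR sites. Alternatives were a Student t reference, division of the statistic by its robust SD over all genes, a mean count of at least 50, median centring and removal of the GC trend. Genes were named by a rule: members past the threshold in an arm or in the difference, all HSP90, HSP70, HSP110, chaperonin, small heat shock and BAG members, HSF1 and HSF2, the 5 members with the highest means, and called genes of the other pathway list. Other genes were named after their values were seen.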

Additional observations from a re-analysis of the deposited data

Results flagged for a closer look

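For 13 chaperone genes the effect of the deletion differed from that of the siRNA by a normal test of the difference (adjusted p under 0.05 over the 10891 genes shared by the arms). The log2 fold change in the deletion arm minus that in the siRNA arm was 1.16 for DNAJB1, 1.02 for HSPA12B, 0.88 for HSPB1, 0.85 for BAG1, 0.83 for BAG6, 0.83 for HSP90AA1, 0.77 for BAG5 and 0.70 for HSF1. It was -2.56 for HSPE1, -1.79 for DNAJC19, -1.74 for AHSA1, -1.38 for HSPB11 and -0.73 for DNAJC3. Of the 13 differences, 0 passed under the Student t reference, 0 with the statistic divided by its robust SD, and 6 genes passed with the GC trend removed. The arms differ in treatment, time and control guide or siRNA, which cannot be told apart from these differences.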

How the results depend on the processing

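No paired analysis was possible because single libraries have no values in either table, and leaving out each replicate was not run for the same reason. The Student t reference (6 degrees of freedom for siRNA, 4 for deletion) left 0 members called in the siRNA arm (0 lower, with 4 at an unadjusted p under 0.05), 0 in the deletion arm (0 higher, 0 lower, with 15 at an unadjusted p), 0 differences between arms (0 above, 0 below, with 13 at an unadjusted p) and 0 families with a call. Dividing the statistic by its robust SD (1.11 for siRNA, 1.88 for deletion) left 1 member in the siRNA arm (1 lower, BAG2), 0 in the deletion arm (2 at an unadjusted p), 0 differences (2 at an unadjusted p) and 0 families. Shares of all genes at an unadjusted p were not computed under these settings. With the GC trend removed, 7 members were called in the deletion arm (3 higher, 4 lower), 6 differed between arms (4 above, 2 below) and 6 of the 12 families had a call, against 10. HSF1 changed sign, to -0.0225. Under a mean count of at least 50 there were 20 deletion calls and 16 differences, and under median centring 19 and 13, where DNAJC30 was lost and DNAJB11 gained. The Student t setting raises every p-value and the robust SD setting shrinks every statistic by construction, and the cause of the GC change was not tested. The wide SE of the deletion arm (median 0.41, against 0.17 for siRNA) limits what could be called there.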

Other observations

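DNAJC3-AS1, an antisense RNA that the name rule took in, had the highest log2 fold change of the chaperone list under siRNA, 0.48, and was not called. The heat-inducible HSPA6, listed in the siRNA table alone, had a mean of 10.5 normalised counts. In each table the HSP90 genes HSP90AB1 and HSP90AA1 had the highest mean normalised counts of the chaperone genes, 18421 and 16418 in the siRNA arm and 28275 and 26930 in the deletion arm, followed by HSPA5.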
